A study of Arabidopsis thaliana with 88 samples.

Results

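Among the Araport11 genes of Arabidopsis thaliana that overlap no annotated transposable element (TE) fragment, 521 had a mean gene-body CHG methylation of 20% or more in accession 6909 and are described here as the members. They were selected on that measured level, the mean of the 4 libraries of 6909 after values read as missing were dropped, and every 6909 value given for them is a description. They were 521 of 22716 such genes with a value in 6909, or 2.29%, out of 26928 genes in all. The other 31 accessions played no part in that choice, and how far they share the state is the question asked of them.

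The series profiled leaf DNA of 32 natural accessions by bisulfite sequencing, in which unmethylated cytosines are converted and read as T, in 88 libraries. The groups are accessions, each a natural inbred line named by its number in the public genome collection of the species, where 6909 is Col-0, the source of the reference genome. All groups shared 1 treatment state, untreated rosettes at the 14-leaf stage, grown on soil at 21 °C with 16 h of light and 8 h of dark, with leaves taken from 2 to 3 plants of an accession. Of the 32 accessions, 11 had 4 libraries (6909 among them), 5 had 3, 13 had 2, and 3 had 1 (5486, 9512 and 9845), each library of an accession coming from a separate round of sowing and collection.

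In plants, cytosines are methylated in CG, CHG and CHH contexts, where H is A, C or T. CG methylation is copied at replication by MET1, CHG methylation is kept by CMT3 in a loop with histone H3 lysine 9 methylation, and CHH methylation is set by RNA-directed DNA methylation and CMT2. Genes with methylated bodies usually carry CG methylation alone, while TEs carry all contexts, so CHG in a gene body is the mark used here for a TE-like state.

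The deposited levels are fractions per locus and library with no number of reads beside them. Sequencing depth is therefore unknown, and levels are printed without counting intervals. Unconverted background was alike: mean CHH over unmethylated genes was 0.401% to 0.478% in the 4 libraries of 6909 and 0.358% to 0.546% in the 84 others. Missing values were not alike, since 1.92% to 2.88% of members lacked a value in a 6909 library and 13.2% to 24.95% in a library of another accession. A level is an average over the cells of several leaves, so a middle value cannot be told apart between a mixture of cells or alleles and partial methylation in all of them.

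In 6909 the members as a set carried methylation in all 3 contexts, though single members such as AT4G09260 and AT2G07815 had 0% CHH. Their gene bodies had a median CG level of 85.1%, a CHG level of 34.9% and a CHH level of 5.56%. Their promoter windows, 400 bp centred on the gene start, had medians of 84.5%, 29.1% and 4.35%. The 3246 TE genes that passed the same CHG threshold had medians of 85.2%, 39.4% and 7.42%, and the 22195 other genes without a TE fragment had 3.73%, 0.382% and 0.415%. By these medians the members lay close to TE genes and far from the genes they were drawn from, as the threshold on CHG requires for that context.

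The members spread over the whole range above the threshold. The lowest stood at 20% CHG and the highest at 80.9%, with 95 members between 20% and 25% and 78 at 50% or more, while 83 genes that are not members lay between 15% and 20%. The highest were AT1G49680 (chromosome 1, 18386867 to 18387166, TAIR10) at 80.9%, AT5G18636 at 77.0% and AT3G42628 at 76.4%. Just inside the threshold, AT1G32337, AT2G07613 and AT4G09260 stood at 20%, the first of these on 2 libraries and the others on 1. Just outside, AT3G32160 stood at 19.97%, AT1G35040 at 19.95% and AT1G36627 at 19.7%.

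The 4 libraries of 6909 gave the members similar levels as a set and scattered ones gene by gene. The median member CHG was 35.7%, 35.2%, 35.3% and 33.3% in rounds 1 to 4. The median SD of a member over those libraries was 7.82 percentage points, 331 members were at 20% or more in all 4 libraries, and 173 fell below 20% in at least 1. Values in all 4 libraries existed for 491 members.

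The members were short genes in TE-rich surroundings. Their median length was 961 bp against 2097 bp for the other genes without a TE fragment, and 22 were shorter than 200 bp. Genes over a TE fragment that passed the same CHG threshold were also short, with a median of 1074 bp. The TE genes that passed it had a median of 2222 bp. The nearest TE fragment lay at a median of 485 bp from members and 3515 bp from the other genes without a TE fragment. One lay within 1 kb of 66.2% of members against 27.2% of those other genes. In the 10 kb to each side, annotated TEs covered a median of 27.3% against 4.80%, and 74.4% around the TE genes. The surroundings were nevertheless mixed. Cover was 50% or more around 154 members and under 10% around 131. Neither a TE fragment nor a TE gene lay within 2 kb of 110 members (21.1%, against 62.3% of the other genes).

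They were spread over all chromosomes, with 100, 122, 126, 69 and 104 members on chromosomes 1 to 5. In the order of genes without a TE fragment, 169 members lay in 71 runs of 2 or more adjacent ones, and 352 stood alone. How many to expect by chance was not computed. Members of a run need not lie close: the 3 from AT4G05632 to AT4G06490 spanned chromosome 4, 3001664 to 3117334. The longest run held 5, from AT2G11620 to AT2G11778 (chromosome 2, 4658445 to 4728239).

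Few of the members are named genes. All 521 were matched in the RefSeq table, but 34 (6.53%) had a gene symbol there, against 38.2% of all genes without a TE fragment. The share was also low, 8.15%, in genes over a TE fragment that passed the same CHG threshold. In the TE genes that passed it the share was 0.308%. In the authors' own transcript annotation, 315 members (60.5%) overlapped a coding locus against 89.9% of genes without a TE fragment, 108 (20.7%) overlapped a noncoding locus on the opposite strand against 29.3%, and 173 (33.2%) overlapped no locus at all against 7.19%. Without sequences for these genes, members that are near-identical copies of other loci could not be identified, and levels of duplicated genes are uncertain to that extent.

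**Figure D1:**
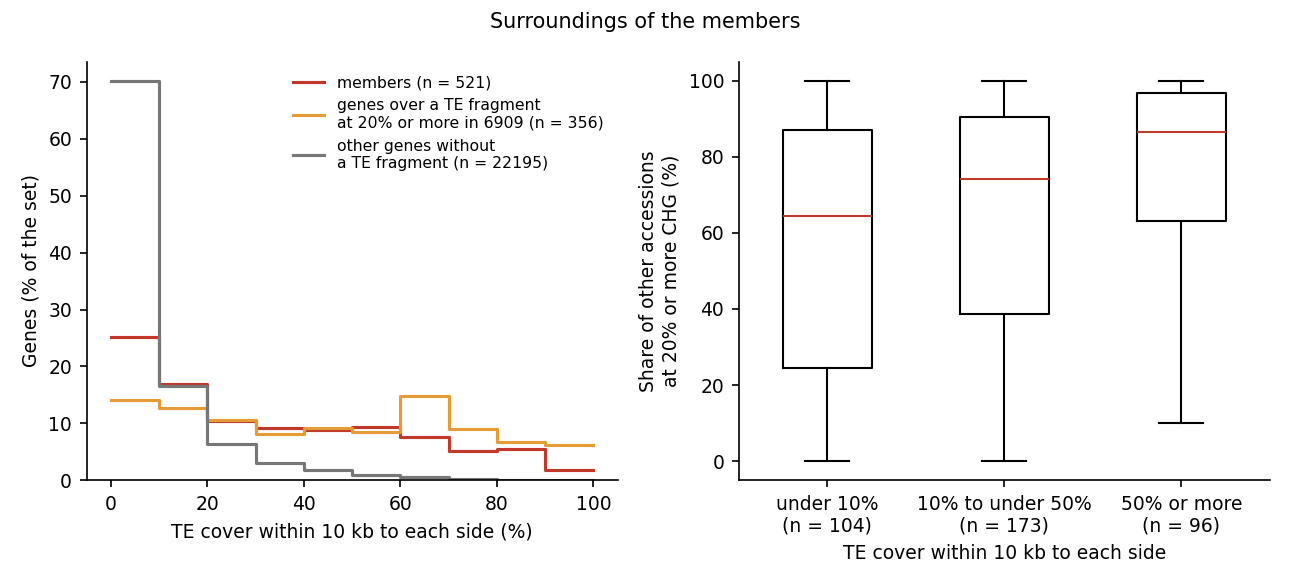
TE cover within 10 kb to each side of the members, of genes over a TE fragment that pass the same CHG threshold and of the other genes without a TE fragment (left, share of each set per 10-point class), and the share of other accessions at 20% or more CHG for the 373 members with values in at least 28 of them, by TE cover (right; line, median; box, quartiles; whiskers, full range). The members reach over the whole range of cover, and the median share goes from 64.5% at the lowest cover to 86.4% at the highest.

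Across the other 31 accessions most members were in the same state in most lines. An accession is said to carry it where its mean gene-body CHG was 20% or more. On average an accession carried it at 66.1% ± 7.67 (SD, n = 31 accessions) of the members for which it had a value, while 1.87% of all pairs of a gene without a TE fragment and another accession reached that level. Of the 13947 pairs of a member and another accession with a value, 66.1% were at 20% or more, 11.3% between 5% and 20%, and 22.6% under 5%. The remaining pairs of the 16151 possible had no value.

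Seen gene by gene, sharing ran from none to all. A value in at least 28 of the 31 accessions was at hand for 373 members, and 3 members had no value in any of them. Among the 373, 51 carried the state in every accession with a value, 118 (31.6%) in 90% or more, 228 (61.1%) in more than 10% and under 90%, and 27 (7.24%) in 10% or less, of which 9 in none. The median share of the 373 was 74.2%. With the same demand of at least 28 values, the 248 genes that overlap a TE fragment and passed the threshold in 6909 had a median share of 80.6%, with 37.5% of them at 90% or more. The 2128 TE genes had a median of 96.6%, with 72.3% at 90% or more. The members' counts lay nearer to those of the genes over a TE fragment than to those of the TE genes.

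**Figure D2:**
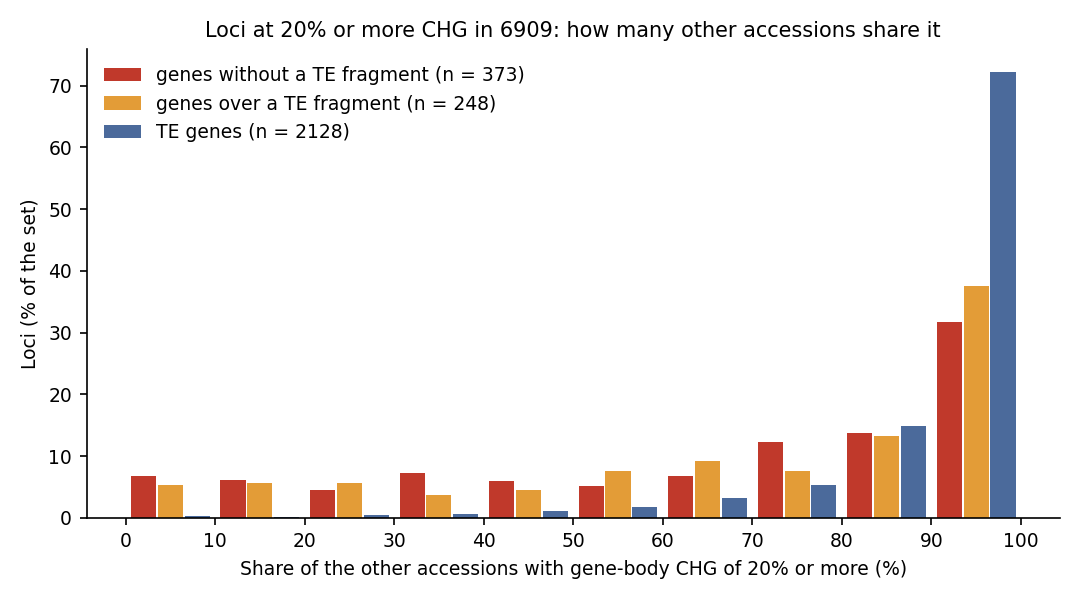
Share of the other accessions with gene-body CHG of 20% or more, for loci at 20% or more in 6909 with values in at least 28 of the 31 others. Bars give the percent of each set per 10-point class of the share: genes without a TE fragment (the members), genes over a TE fragment and TE genes. The last class holds 31.6% of the members and 72.3% of the TE genes.

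Sharing differed with the TE cover around the gene. Of the 104 members with at least 28 values and cover under 10%, 25 (24.0%) carried the state in 90% or more of the accessions and 12 (11.5%) in 10% or less. Of the 96 with cover of 50% or more, 42 (43.8%) did so in 90% or more and 1 in 10% or less. Members with a symbol and at least 28 values had a median share of 66.1%. These are counts over genes that share libraries, given without a test.

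Where another accession lacked CHG, it mostly lacked CG as well. In the pairs under 5% CHG the median CG level was 3.15%, CG was under 10% in 64.4% of them, and median CHH was 0.372%. In the pairs at 20% or more, median CG was 85.0% and median CHH 6.23%. In the middle class, 5% to under 20% CHG, median CG was already 75% and median CHH 2.34%. CG of 50% or more with CHG under 5%, the pattern of ordinary body methylation, appeared in 499 pairs, or 15.9% of those under 5%. In 193 of the 499 CG stood at exactly 100%, which may be a region without data, and without such values the share was 10.4% and the median CG 2.38%. Among TE genes under 5% CHG, median CG was 66.7%, and 33.7% without the values at exactly 100%.

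The same was seen within genes. For 227 members, at least 3 accessions were at 20% or more and at least 3 under 5%. Their median CG was 81.7% in the former and 12.0% in the latter, and median CHH 5.87% and 0.589%. CG was lower in the accessions without CHG in 211 of the 227. In those accessions CG was under 10% for 96 members, between 10% and 50% for 84, and 50% or more for 47. These counts keep values at exactly 100% CG, which may be regions without data. In AT3G27329, AT4G09355 and AT5G38378 the CG level of those accessions was 100%.

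**Figure D3:**
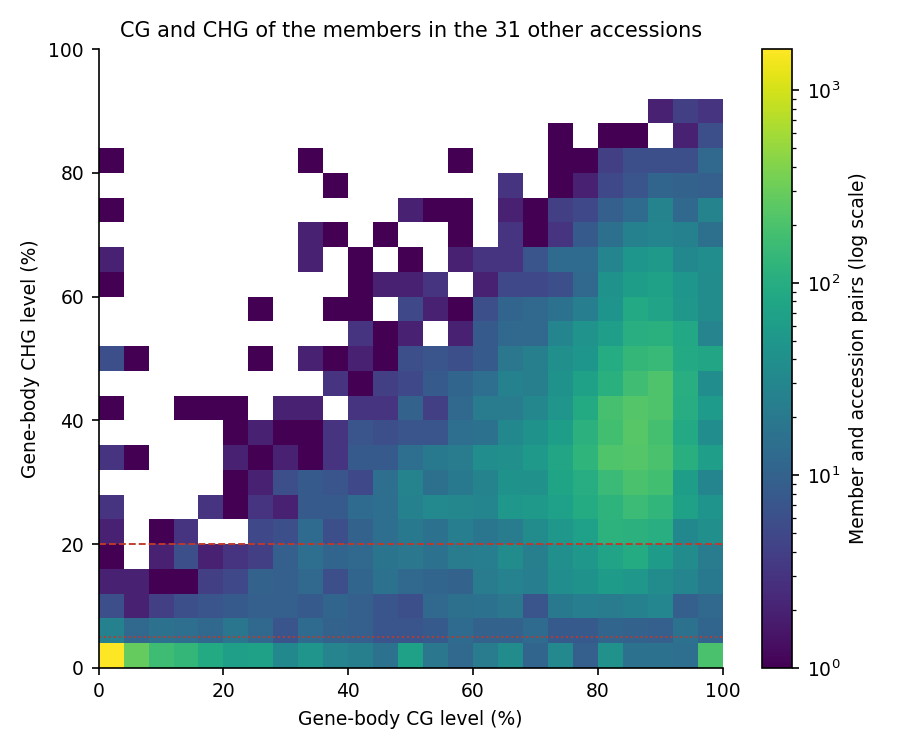
Gene-body CG level against gene-body CHG level for each pair of a member and another accession with a value, as a 2-dimensional histogram with a log colour scale. The dashed and dotted lines mark 20% and 5% CHG. Pairs at 20% or more gather around a median CG of 85.0%, and those under 5% gather at the origin, with a second group at the right end of the lower edge, where 193 pairs stand at exactly 100% CG.

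Few members fell into clean classes. Of the 252 members with at least 28 values and at least 3 accessions on each side of 20%, 25 had no accession between 5% and 20%, and 30 had a gap of 20 percentage points or more between the highest accession below 20% and the lowest above. The median member of the 252 had 3 accessions between 5% and 20%.

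Whether the accessions differed beyond the spread between their libraries was tested on the 84 libraries without 6909, with limma's moderated F-test on the accession term, adjusted by Benjamini-Hochberg over all loci of the table at an adjusted p under 0.05. CHG differed at 272 of the 378 members tested (72.0%). Over all Araport11 loci 19.7% were called, over genes without a TE fragment 11.3%, over genes over a TE fragment at 20% or more in 6909 63.3%, and over TE genes at that level 53.0%. Most loci in the table have almost no CHG, and among loci with a mean of at least 1% the shares were 79.9% of members and 54.1% of all. The median SD between accession means was 12.7 percentage points, and that between libraries of an accession 9.25.

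CHH and promoter CHG gave counts of the same order. CHH differed at 218 of 399 members (54.6%, against 13.3% of all loci, 7.01% of genes without a TE fragment, 49.0% of genes over one at 20% or more in 6909 and 39.3% of the TE genes), and promoter CHG at 157 of 320 (49.1%, against 14.8%, 9.94%, 33.5% and 25.6%). CG differed at 310 of 399 members (77.7%), a share near the 76.4% of genes without a TE fragment. The other shares called in CG were 63.2% of all loci, 69.2% of the genes over a TE fragment and 52.2% of the TE genes. Of the 378 members tested in all 3 gene-body contexts, 179 were called in all of them, 42 in none, 57 in CG and not in CHG, and 26 in CHG and not in CG. The other 143 members had too few values for the CHG test, which needs them in 80% of libraries.

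Members shared by nearly all accessions also varied in level. CHG differed at 62 of 126 tested members with a share of 90% or more (49.2%). It differed at 189 of 227 with a share between 10% and 90% (83.3%), and at 21 of 25 with a share of 10% or less (84.0%). The classes were cut from the same accession means that the test compares, so the order of these shares is partly built in. Shares for other loci in the same classes were not computed. No member was called for the round of sowing and collection: 0 of 379 were called for a round term in limma's test, against 0.00254% of all loci, with 27 members at an unadjusted p under 0.05 and 0 called on the arcsine scale.

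The accessions ranged from carrying the state at fewer than 1 in 2 members to carrying it at most of them. The lowest were 10012 with 49.1% of its members with a value, 6244 with 50.5% and 5779 with 52.4%. The highest were 9057 with 75.7%, 6966 with 78.4% and 5486 with 83.6%, the last on 1 library. Single libraries spread unequally within an accession, from 49.3% to 51.9% in 10012, from 49.8% to 50.3% in 6244, from 47.5% to 55.2% in 5779 and from 72.8% to 76.8% in 6966. The widest ranges were 55.2% to 66.4% in 5210 and 60.9% to 69.6% in 5772, so neighbours in the order can overlap. An accession mean can lie outside the range of its libraries, because it averages the level of each gene before the threshold is applied.

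The CHG level at large was low in the accessions at the lower end and mixed at the upper end. The low accessions had a median member CHG of 19.7% (10012), 20.1% (6244) and 20.9% (5779) and a median over the TE genes of 31.8%, 31.1% and 34.0%. In 5486 these medians were 40.0% and 44.8%, in 9057 38.7% and 44.4%, and in 6966 35.1% and 40.3%, where the mean over the 31 accessions for TE genes was 39.2% ± 4.33 (SD). Accession 5856, with TE genes at 47.0%, carried the state at 71.6% of members. In accession 6911 the TE genes had a median of 48.0%, the highest of the 31, and its members 34.6%, but it carried the state at 59.6% of members and had 35.2% of them under 5%, the highest share of all. The part of the overall CHG level in the counts per accession was not tested.

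**Figure D4:**
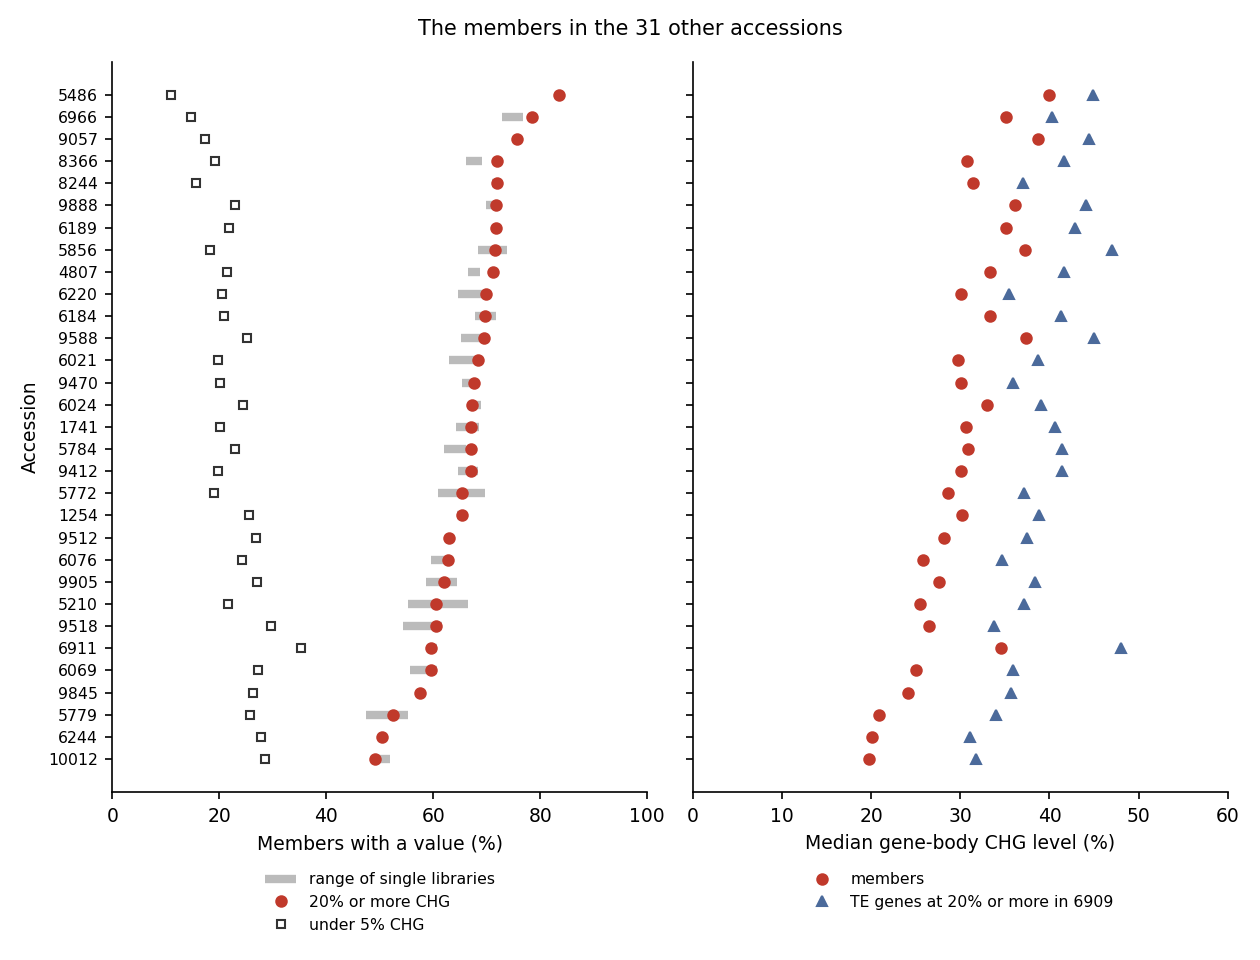
The members in each of the 31 other accessions. Left, percent of members with a value at 20% or more CHG (circles) and under 5% (squares), with the range of single libraries as a bar. Right, median CHG of the members (circles) and of the TE genes at 20% or more in 6909 (triangles). Accession 10012 is lowest at 49.1% and 5486 highest at 83.6%, and 6911 has the largest share of members under 5%.

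The same rule applied to each accession gave lists of other sizes. Between 271 genes without a TE fragment (10012) and 551 (9888) were at 20% or more, with 521 in 6909. Of an accession's own list, a median of 72.9% were members, from 55.0% in 6911 to 80.1% in 10012. The genes on these lists that are not members were mostly under 5% in 6909, a median of 67 genes per accession, with a median of 44 between 5% and 20%.

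Taken over all 32 accessions, 1500 genes without a TE fragment were at 20% or more in at least 1, and 979 of them are not members. Of the 21585 such genes with a value in every accession, 967 reached 20% in at least 1, 32 did so in all 32, and 341 in exactly 1. For 6 of the 341 that accession was 6909. Only 2 genes that are not members were at 20% or more in at least 28 of the others.

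Among the members without a symbol, 4 genes stood out for sharing, being carried by all 31 accessions at the highest mean level. AT5G07570 (chromosome 5, 2391581 to 2396329, with no TE fragment within 14134 bp) measured 61.2%, 70.3%, 69.1% and 71.5% CHG in the 4 libraries of 6909, and 53.4%, 62.4% and 73.1% as the lowest, median and highest of the other accessions. Its promoter window had 0% CHG in 6909 beside a gene body at 68.0%. The accessions differed beyond the spread between libraries (adjusted p = 0.00342, limma), a call lost without round 3 (adjusted p = 0.0700) or round 4 (0.202).

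AT2G46765 was at 53.8% in 6909 and at 49.5% to 83.0% elsewhere, AT3G13370 at 56.0% and 33.3% to 88.9%, and AT2G34655 at 61.8% and 33.3% to 88.9%. None of these 3 differed among the accessions by the test (adjusted p = 0.374, 0.423 and 0.331, limma). All 31 values lay above the threshold in each.

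The auxin response factors are DNA-binding proteins that switch genes in response to auxin, and a group of closely related ones lies on chromosome 1. A match by name found 21 of them, which may not be the whole family. Of these, 14 had no TE fragment, and 4 of the 14 were members: ARF12, ARF13, ARF21 and ARF22. The 4 auxin response factors ARF14, ARF15, ARF20 and ARF23, which overlap a TE fragment and so are not members, stood at 42.1%, 43.6%, 38.98% and 48.6% CHG in 6909. All 8 lie on chromosome 1, and the other 13 found by name, among them ARF1, ARF6 and ARF8, were below 1% CHG. This family was picked out after its values were seen.

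ARF22 (chromosome 1, 12556005 to 12559082) measured 39.7%, 36.3%, 57.4% and 40.6% in the libraries of 6909, and the other accessions lay at 31.4%, 50% and 68.2% as lowest, median and highest. ARF21 measured 46.8%, 42.4%, 22.4% and 54.5%, and the others 20.6%, 39.7% and 70.1%. ARF12 measured 40.7%, 41.4%, 38.3% and 55.6%, and the others 25.5%, 39.5% and 57.2%. All 31 accessions carried the state in each of these genes.

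The test found a difference among the accessions for ARF21 (adjusted p = 0.00598, limma), though not without round 3 (0.214) or round 4 (0.0690), and none for ARF22 (0.0723) or ARF12 (0.409). ARF22 passed without round 4 (0.0201) and when only loci with a mean level of at least 1% were tested (0.0299). ARF13 sat near the threshold in 6909, with 13.9%, 21.4%, 21.8% and 25.8% in its libraries, and 19 of 31 accessions were at 20% or more, from 6.55% to 37.6%. No accession was under 5% CHG in ARF13, and they differed (adjusted p = 9.14e-07, limma), with CG between 53.3% and 90.5%.

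Other genes carried by all accessions were PRSL1 and RIC5, which encodes an effector that binds ROP GTPases. PRSL1 (chromosome 4, 18583244 to 18584524) measured 70.5%, 57.0%, 52.2% and 50% in 6909, and 26.5%, 58.7% and 67.7% as lowest, median and highest elsewhere (adjusted p = 0.00486, limma; 0.458 without round 4). RIC5 (chromosome 3, 8373375 to 8375098) measured 33.3%, 52.5%, 46.5% and 40.3%, and 30.8%, 44.4% and 63.3% elsewhere (adjusted p = 0.280, limma). In RIC5 the median CG of the other accessions, 63.3%, was below that of the members at large.

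RIC4, of the same family, was shared far less. It measured 26.5%, 48.4%, 8.70% and 27.7% in 6909, and 8 of 31 accessions carried the state, with 6911 highest at 45.7%. The other 23 accessions were at 3.46% or less, 18 of them at 0%, and the accessions differed (adjusted p = 5.98e-15, limma).

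Some cell wall genes were carried by most accessions. EXT10 and EPR1 encode extensin-like wall proteins. EPR1 (chromosome 2, 11713411 to 11715774) was carried by 28 of 31 accessions at 32.1% or more, while 10012, 6244 and 1254 were at 0.581% or less (adjusted p = 2.63e-16, limma). EXT10, with no TE fragment within 13832 bp, was carried by 27 of 31. PME7 and PPME1 encode pectin methylesterases, the latter known from pollen, and PME7 was carried by 27 of 31.

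PPME1 (chromosome 1, 26343275 to 26345058) measured 44.7%, 30.8%, 37.9% and 31.7% in 6909. It was carried by 22 of 31 accessions, from 23.1% to 64.4%, and the other 9 were at 6.09% or less, so that no accession lay between those values (adjusted p = 1.34e-24, limma). Its promoter window had 0% CHG in 6909.

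Receptor and kinase genes ranged from carriage by most accessions to carriage by few. RKF2, a receptor-like kinase first found in flowers (chromosome 1, 6589835 to 6592762), measured 71.3%, 53.8%, 58.3% and 57.1% in 6909. Its values lay in separate ranges: 18 accessions were between 51.3% and 67.5% CHG and 13 between 0.184% and 3.79%. CG was at least 78.7% in the former and at most 6.77% in the latter, and the accessions differed in CHG (adjusted p = 2.23e-41, limma).

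WAK5, a wall-associated kinase, measured 22.0%, 33.0%, 29.4% and 35.2% in 6909, and 2 of 31 accessions carried the state, 9470 at 28.1% and 9512 at 21.9% (adjusted p = 4.43e-29, limma). Its median CG elsewhere was 20.9%. ADR1-L3, of a family of helper immune receptors, stood at 51.8% in 6909 and had a value in 18 accessions, of which 5486 at 47.9% and 5779 at 43.3% carried the state. Too few libraries had a value for a test.

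Several enzyme genes were carried by few accessions. CYP705A32, a cytochrome P450, measured 37.1%, 40.1%, 31.3% and 42.7% in 6909, and was carried by 4807 at 46.5% and 5779 at 42.9% alone, the others being at 11.8% or less (adjusted p = 1.75e-24, limma). FUT9, a fucosyltransferase, measured 50.9%, 41.9%, 43.8% and 49.0%, and was carried by 5486 at 56.7%, 8244 at 39.9% and 1741 at 32.7%, the others being at 1.81% or less (adjusted p = 4.23e-24, limma). The carriers of FUT9 and CYP705A32 had no accession in common, which says little with 3 and 2 carriers among 31 accessions.

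CYP79A2, which makes a precursor of a glucosinolate from phenylalanine, was carried by 7 of 31 accessions, and UGT73C1, a UDP-glycosyltransferase, by 4 of 31. CYP79A4P, a P450 locus with values in 14 accessions, was at 0% in 7 and between 31.3% and 52.3% in the other 7, and was not tested. In 6 of the accessions at 0% CHG its CG stood at exactly 100%, which may be a region without data, so their state is in doubt. DMT2, a DNA methyltransferase gene related to MET1, was carried by 10 of 31, with 6 accessions between 5% and 20% (adjusted p = 5.24e-27, limma).

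Of the 13 known epialleles or repeat-silenced genes in a fixed list, HISN6B was the single member. It encodes a histidinol-phosphate aminotransferase of histidine synthesis (chromosome 1, 27066948 to 27069166), and its library values in 6909, 42.1%, 56.0%, 63.8% and 87.5%, scattered more than those of most members. It was carried by 5486, 5772, 6076, 8366, 5210, 6966 and 5779 at 40.2% to 73.3%, and 20 of the 30 accessions with a value were at 0% (adjusted p = 4.09e-17, limma). QQS and RPP4 of the list were at 20.8% and 38.0% CHG in 6909 but overlap a TE fragment. None of 14 imprinted endosperm genes and none of 14 genes of the methylation machinery was a member.

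Members that encode MADS-box transcription factors ranged from carriage by nearly all accessions to carriage by none. AGL90 was carried by 29 of 31 accessions and did not pass the test (adjusted p = 0.293, limma). AGL92 was carried by 12, at 28.9% or more, while the other 19 were at 1.59% or less (adjusted p = 1.00e-22, limma). AGL85, at 23.3%, 23.4%, 17.9% and 25% in 6909, was carried by none, with 25 accessions at 0% and the highest at 9.52%. Its call (adjusted p = 5.47e-06, limma) was lost without the accessions that have 1 library (0.683), without round 2 (0.761) and with the deposited values kept (0.988).

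**Figure D5:**
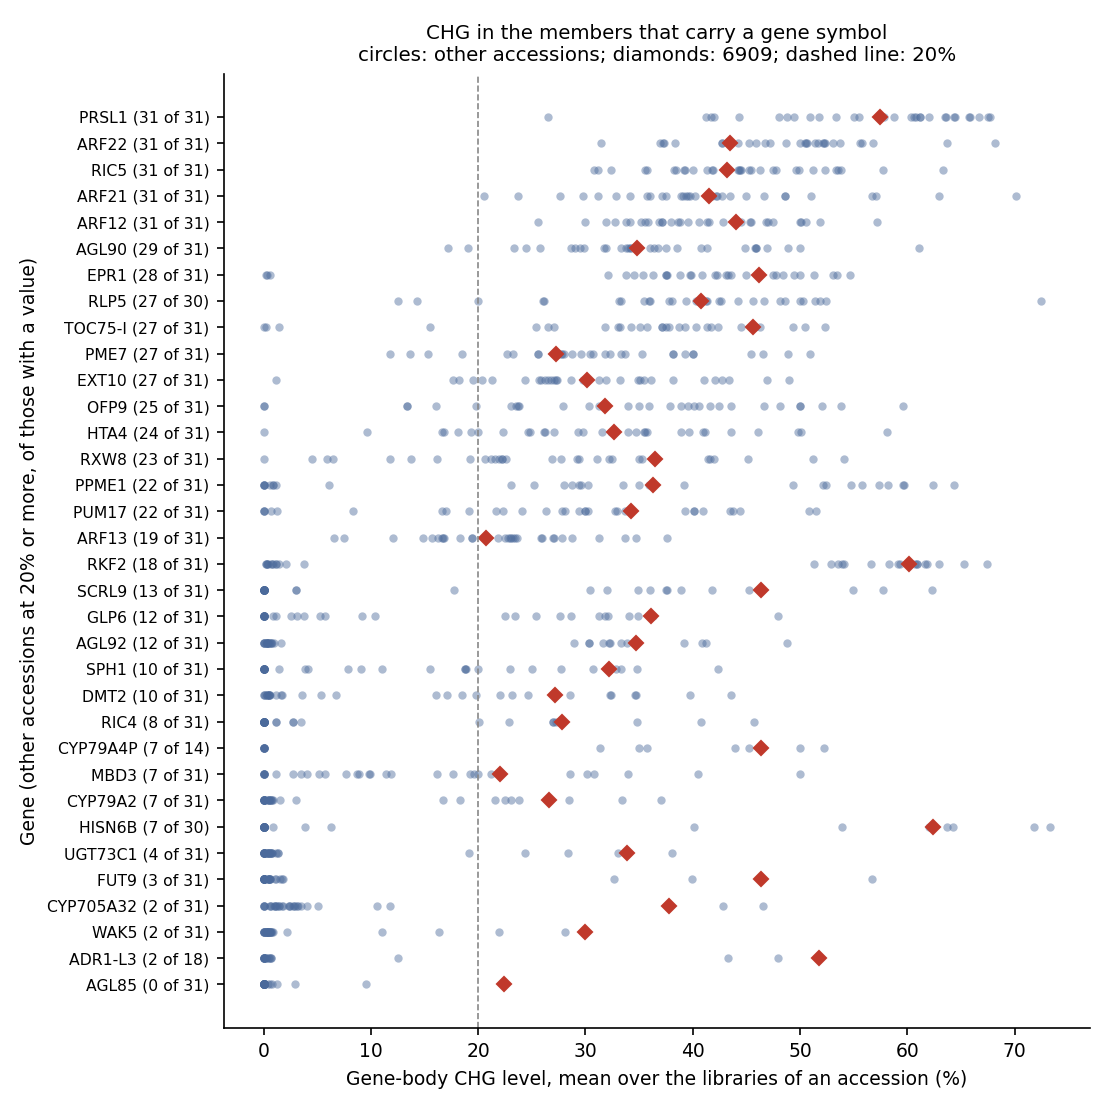
Gene-body CHG of the 34 members with a gene symbol, ordered by how many other accessions reach 20%. Circles are means of the other accessions, diamonds 6909, and the dashed line marks 20%. PRSL1, ARF22, RIC5, ARF21 and ARF12 have every circle to the right of the line, RKF2 has a group on each side with none between 3.79% and 51.3%, and AGL85 has none to the right.

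Besides AGL85, the members with at least 28 values that were carried by none and stood highest in 6909 had no symbol. AT4G10870 measured 31.3%, 29.5%, 28.1% and 20.7% in 6909 and at most 16.4% elsewhere. AT3G16680 measured 30.2%, 28.1%, 16.7% and 32.7% and at most 19.0%, and AT5G46320 measured 50%, 26.1%, 15.4% and 12.9% and at most 14.5%. AT3G23685 measured 44.9%, 15.6%, 20% and 19.2%, and at most 19.0% elsewhere. Of these 4 genes, AT4G10870 alone was above 20% in all 4 libraries of 6909.

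Some members could hardly be compared. For 15 members, 3 or fewer of the other accessions had a value, and 7 of the 15 lie on chromosome 2 between 3246019 and 3473692, a stretch in which the reference accession holds a copy of much of the mitochondrial genome. The stretch has 10 members, with 20% to 57.8% CHG in 6909. At most 12 other accessions had a value for any of them, and 0 accessions were at 20% or more. The stretch begins and ends at members without a value elsewhere, so the low number of values is partly built in. AT2G07773, a member outside the stretch, had a value in 28 accessions, all at 0% CHG. AT2G07776, AT2G07734 and AT2G07815 had no value in any other accession, and AT2G07734 measured 40%, 20% and 50% in the 3 libraries of 6909 that gave one.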

How the data were processed

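Bisulfite sequencing levels of 88 leaf libraries were used (paired reads of 100 bp per the labels). The authors deposited methylation as fractions from 0 to 1 per locus, library and context, for gene bodies and for promoter windows of Araport11 loci, printed here as percent. The build was TAIR10, per the submitters' processing notes, and aligner and caller were not given in the sources used here. Neither counts nor coverage are deposited. Where CHH was exactly 1 the locus was read as missing in every context, and where CHG alone was exactly 1 it was read as missing for CHG. CG loci that stood at 1 in all libraries left were dropped. No label states this reading. Overlap meant at least 1 bp.

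Levels were averaged over the libraries of an accession. Differences among the 31 accessions other than 6909 were tested per locus with a one-way F-test on fractions, moderated with limma 3.58.1 (R 4.3.3, NumPy 2.4.6, pandas 2.3.3), for loci with values in 80% of libraries, adjusted by Benjamini-Hochberg. On data simulated from the libraries, differences with an accession SD equal to the replicate SD were recovered at 73% of 100 CHG loci. The share was 59% in CG, 63% in CHH and 61% in promoter CHG. With 2 times the replicate SD, recovery was 100% in each. The same simulations gave 14 false calls of 39160 loci in CHG and 15 of 44011 in CG. There were 11 of 45315 in CHH and 33 of 39996 in promoter CHG, where they were most frequent. Noise was drawn as normal, and differences were placed only at loci of middle mean level, or in CHH above a low level. Most real loci have almost no CHG, so the simulations do not show which calls are the least certain. Replicates are rounds of sowing and collection per the labels, so a replicate number pairs libraries across accessions. Deviations from accession means correlated at 0.00191 within a round and -0.000673 between rounds, on average, over 2654 loci.

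The members, lists and tests were chosen with earlier results of these data known. Genes were named by rule: members in the fixed lists, the 4 most and 4 least shared among those with at least 28 values, again among those with a symbol, the 4 with a symbol and the largest SD, 3 on each side of the threshold, the 3 with fewest values and the 3 highest. Other genes with a symbol were named after their values were seen. A RefSeq table (assembly TAIR10.1) supplied the symbols. It gave no product text, and planned counts of gene families by keyword are not reported, since names alone missed members and some keywords matched parts of other words.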

Additional observations from a re-analysis of the deposited data

Results flagged for a closer look

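Of 68 groups of 4 libraries (medians of the members in an accession, or a named gene in 6909) examined for a single value far from the others, 3 (4.41%) had one, where chance gives about 1 in 20. In accession 5210 the median member CHG was 28.6% in 1 library and 24.4%, 24.7% and 25% in the other 3. In accession 5856 the median member CG was 87.0% in 1 library and 83.8%, 83.8% and 84.2% in the others. AT3G23685 had 44.9% CHG in the round 1 library of 6909 and 15.6%, 20% and 19.2% in rounds 2 to 4, and its mean of 24.9% passed the threshold through that library.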

How the results depend on the processing

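The number of members was 338 at a threshold of 30%, 701 at 10%, 774 with the deposited values kept and 515 to 532 without 1 round. The mean share carried at other thresholds and with the deposited values kept was taken over the members as first chosen, not over these new sets. It was 74.9% at 10%, 50.6% at 30% and 75.1% with the deposited values kept. Of the members as first chosen, only 338 reached 30% in 6909 itself. The lower share at 30% therefore does not show less sharing under a stricter choice. Without 1 round the mean share was 65.6% to 66.0%. Requiring a value in every library left 139 calls among members in CHG, 177 in CG, 121 in CHH and 36 in promoter CHG, with fewer members tested (173, 202, 202 and 54). With the deposited values kept, CHH gave 344 and promoter CHG 300. Without 1 round the calls were 206 to 254 in CHG, 283 to 299 in CG, 143 to 183 in CHH (lowest without round 3), 117 to 135 in promoter CHG and 0 to 0 for the round term. With the growth round as a replicate block the pairing changed little: 279 in CHG, 310 in CG, 216 in CHH and 156 in promoter CHG. All other settings kept their count within 1.5 times. For the genes named by rule and tested, 188 of the recomputed tests kept their side of the threshold, 11 lost and 3 gained the call. Demanding values in all 4 libraries of 6909 (491 members) or in at least 28 others (65.8%) was added after seeing the data. Depth is unknown, so the scatter of short genes cannot be set against counting error.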

Other observations

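Among genes of the fixed list that are not members, the PAI genes of tryptophan synthesis, known for repeat-induced silencing, were unmethylated in 6909 and methylated elsewhere. PAI1 stood at 0.521% CHG in 6909 and was at 20% or more in 10 of 31 accessions, with a highest value of 60.2%. PAI2 was at 0% in 6909 and at 20% or more in 9, reaching 74.6%, and PAI3 at 0.482% and 8, reaching 73.7%. SNC1, an immune receptor gene, stood at 2.61% in 6909 and was at 20% or more in 7 of 31.

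Some runs of adjacent members had high shares throughout and others had mixed ones. Whether the same accessions carried the state at neighbouring genes was not tested. In the run of 4 from AT2G10955 to AT2G10975 (chromosome 2, 4323589 to 4335909) the shares of other accessions ran from 80.6% to 100%, while in the run from AT3G29637 to AT3G29645 (chromosome 3, 11471115 to 11481190) they ran from 22.6% to 100%.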
